A study of Mus musculus with 61 samples.

Results

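The genes described here mark lymphocytes and the lymph node in mouse skeletal muscle: 10 of the 19462 genes in the deposited count table, taken by symbol. Cd79a and Cd79b stand for B cells, Cd3e, Cd4 and Cd8a for T cells, Igkc and Ighg2b for antibody production, and Ccl21a, Ccl19 and Cxcl13 for the stroma that organises a lymph node. All 10 were found in the table and all 10 passed the filter on low counts when every library was used. The study sequenced polyA RNA of skeletal muscle from the founder strains of the Diversity Outbred mice. The titles name the strains AJ (8 libraries), B6 (8), 129 (8), NOD (7), NZO (8), Cast (7), PWK (7) and WSB (8), 61 libraries in all. Every mouse received a high-fat, high-sugar diet, given in the sample labels as 45% fat, so no library comes from mice on another diet. Age and sex are not given in the labels used here, nor is the muscle that was taken, and the labels do not say that each library is a separate animal. The p-values below therefore measure the spread between libraries, which may be partly technical.

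A lymph node collects lymph that drains from a tissue such as muscle, and B cells and T cells gather in separate zones inside it. Reticular stromal cells of the T cell zone make CCL21 and CCL19, which draw in cells with the receptor CCR7. Stromal cells of the B cell follicles make CXCL13, which draws in cells with the receptor CXCR5. CCL21 is also made by the endothelium of lymphatic vessels, which run through ordinary tissue, while plasma cells, the antibody factories that B cells give rise to, carry far more immunoglobulin mRNA than a resting B cell. Muscle fibres are not a known source of B or T cell receptor proteins.

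Both T zone chemokines have near-identical copies on mouse chromosome 4, and the sequences are shown because they set how far reads of a member and of its copy can be told apart. Ccl21a (GRCm38 chr4:42772860-42773993, minus strand) and Gm21541 (chr4:41903610-41904743, plus strand) each have a coding sequence of 402 bases in the GENCODE M21 transcripts, and 2 of these bases differ, T84A and C194T. Positions are counted from 1 at the start of the coding sequence, the base of the member stands before the position and that of the copy after it, and the differing base is in capitals in the stretches below.
Ccl21a, bases 54 to 114: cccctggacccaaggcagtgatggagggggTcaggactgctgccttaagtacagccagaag
Gm21541, bases 54 to 114: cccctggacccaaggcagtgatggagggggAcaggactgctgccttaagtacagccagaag
Ccl21a, bases 164 to 224: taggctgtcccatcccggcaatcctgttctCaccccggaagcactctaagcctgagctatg
Gm21541, bases 164 to 224: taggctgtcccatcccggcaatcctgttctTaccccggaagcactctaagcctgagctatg
Ccl19 (chr4:42754525-42756577, minus strand) and Gm2564 (chr4:42629719-42631714, plus strand) differ at 1 of 327 aligned bases, T2C, which lies in the start codon of Ccl19.
Ccl19, bases 1 to 61: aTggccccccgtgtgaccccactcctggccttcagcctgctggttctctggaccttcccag
Gm2564, bases 1 to 61: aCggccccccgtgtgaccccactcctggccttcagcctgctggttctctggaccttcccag
Over the whole transcripts the identity was 99.31% for Ccl21a with Gm21541 and 99.11% for Ccl19 with Gm2564. A read that covers none of the differing bases matches both genes of a pair, so the counts of Ccl21a and Ccl19 are uncertain where the counting could divide reads between the copies. Ccl21b and other copies of these chemokines were not analysed here.

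The libraries held 17057111 to 65153255 estimated counts, with a median of 33744449. Values are given as CPM, the count scaled to the library's size after trimmed-mean normalisation, and a count of 0 allows a level of up to 3 counts, which is 0.0470 to 0.307 CPM depending on the library. Muscle markers such as Myh4 and Ttn summed to between 109690 and 208910 CPM, and these genes of the contractile fibre were thus abundant in every library. The ribosomal RNA transcript Rn18s-rs5 took 1.49% to 46.3% of the counts. No library repeated another: over the 203 pairs of libraries of 1 strain, a chi-square test of their counts gave at least 10.98 per degree of freedom. Lymphocyte genes set 9 libraries apart from the rest, as given next.

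The 5 receptor and coreceptor genes of B and T cells were near 0 in 52 of the 61 libraries and high together in the other 9. The 9 libraries were B6_1, B6_6, Cast_7, Cast_8, PWK_1, WSB_1, WSB_7, WSB_8 and WSB_9, so 4 of the 8 WSB libraries, 2 of B6, 2 of Cast, 1 of PWK and none of AJ, 129, NOD or NZO. In each, the median over these 5 genes of the log2 CPM stood at least 3.46 above the median of all libraries, and the next library, NZO_8, reached 1.26. The rule set at the outset used a distance of over 2 log2 units from the library's own strain, which gave 8 libraries and missed WSB_7 at 1.72, because the other high libraries raised the WSB median. The distance from all 61 libraries was added after the data were seen. Libraries are described by this split but not tested across it, since these genes defined it.

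Cd79a, which encodes a signalling chain of the B cell receptor (chr7:24897381-24902197, GRCm38), was at 22.6 CPM in B6_1, 9.46 in B6_6, 11.2 in Cast_7, 3.83 in Cast_8, 10.9 in PWK_1, 15.5 in WSB_1, 3.38 in WSB_7, 8.95 in WSB_8 and 11.03 in WSB_9. In the other 52 libraries it ran from 0 to 0.465 CPM with a median of 0.0601, so the 9 held 95.1% of its summed CPM. Its partner chain Cd79b (chr11:106311341-106314762) ran from 1.98 CPM in Cast_8 to 13.9 in B6_1 among the 9, and reached at most 0.432 elsewhere, in NZO_8. The libraries low in Cd79a, Cast_8 and WSB_7, were also the lowest of the 9 in Cd79b.

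Cd3e, a chain of the T cell receptor complex (chr9:44998740-45009627), ran from 0.872 CPM in Cast_8 to 5.81 in WSB_1 among the 9 libraries. Elsewhere it reached 0.667 CPM, in PWK_6, and the 9 held 77.5% of its summed CPM, the smallest share among the 5 receptor genes. Cd4, the coreceptor of helper T cells (chr6:124864692-124888221), was at 2.53 CPM in WSB_7, the lowest of the 9, and at 12.5 in WSB_1, the highest. The other 52 libraries held Cd4 at up to 0.675 CPM. Cd8a, the coreceptor of cytotoxic T cells (chr6:71373427-71379173), ran from 1.21 CPM in WSB_7 to 7.49 in B6_1 and did not pass 0.205 in the rest. For each of the 5 receptor genes, which defined the split, the 9 libraries did not overlap with the other 52.

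**Figure D1:**
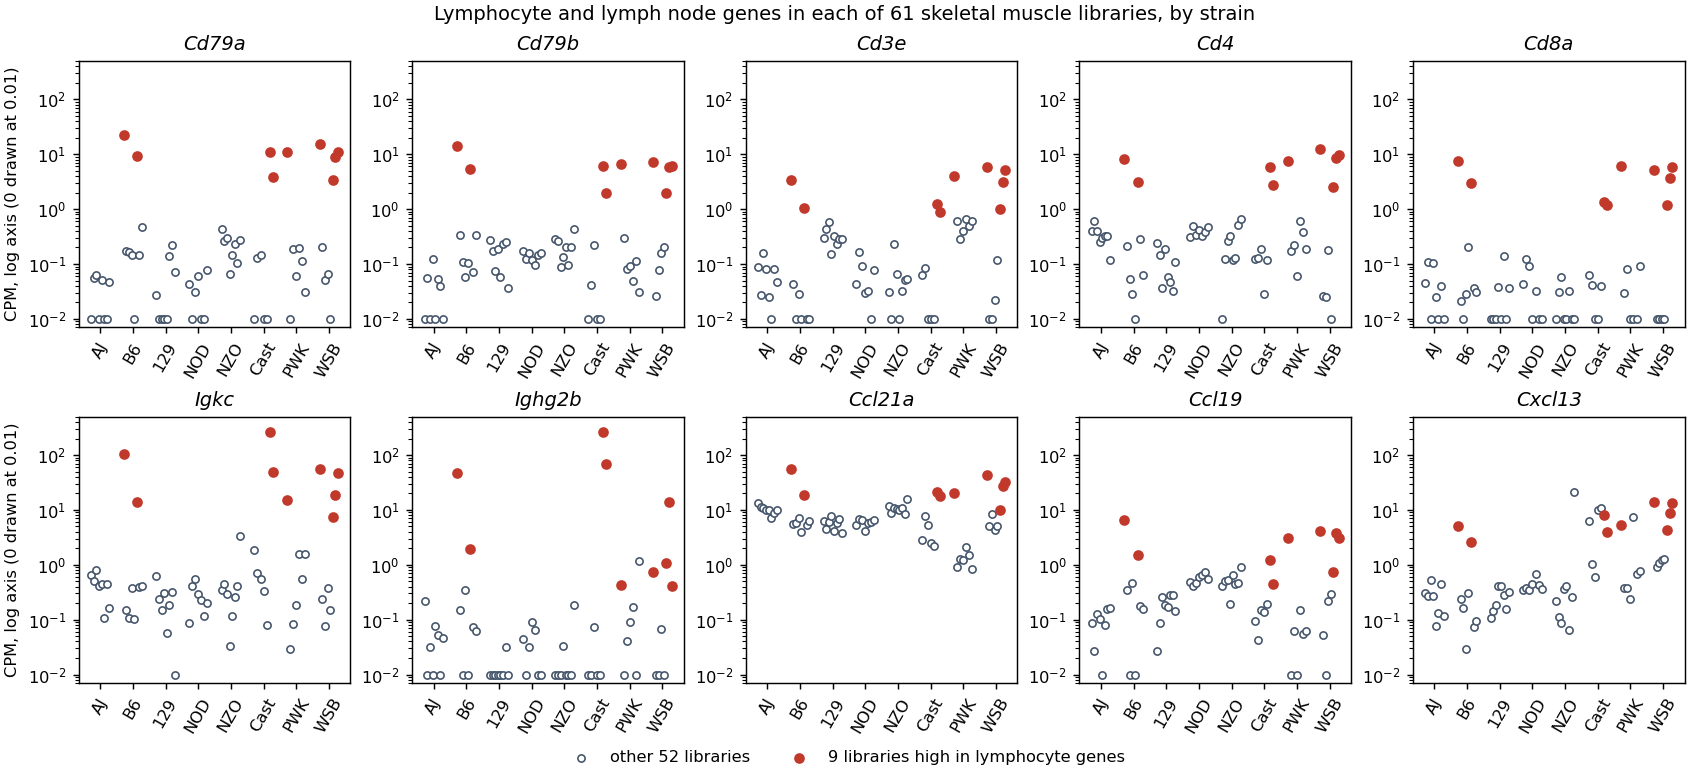
Each point is 1 of the 61 libraries, placed by strain on the x axis, with CPM on a log y axis and values of 0 drawn at 0.01. Filled red points are the 9 libraries high in lymphocyte genes, open points the other 52. Cd79a stands at 3.38 to 22.6 CPM in the filled points and at most 0.465 in the open ones, while Ccl21a and Cxcl13 overlap between them.

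The immunoglobulin genes were also high in these libraries, but unevenly. Igkc, the constant region of the kappa light chain (chr6:70726435-70726966), was at 264 CPM in Cast_7, 104.6 in B6_1, 54.9 in WSB_1, 48.9 in Cast_8, 47.0 in WSB_9, 19.0 in WSB_8, 15.0 in PWK_1, 13.9 in B6_6 and 7.32 in WSB_7. In the other 52 libraries it lay between 0 and 3.35 CPM, the highest being NZO_8, with a median of 0.2998. Cast_7 alone held 44.2% of the summed Igkc CPM of all 61 libraries.

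Ighg2b, the constant region of an IgG heavy chain (chr12:113302965-113307933), was at 267 CPM in Cast_7, 68.8 in Cast_8, 47.7 in B6_1 and 13.7 in WSB_8. The remaining libraries of the 9 had 1.94 CPM in B6_6, 1.07 in WSB_7, 0.742 in WSB_1, 0.423 in PWK_1 and 0.409 in WSB_9. PWK_9, which is not among the 9, had 1.20 CPM, and the median of the 52 was 0. Cast_7 held 65.9% and the top 3 libraries 94.7% of the summed CPM, so single libraries carried Ighg2b more than any other member. Related plasma cell transcripts had the same top library: Jchain, which links antibody units, ran from 2.72 CPM in B6_6 to 97.4 in Cast_7, and Ighg2c from 0.106 in PWK_1 to 77.6 in Cast_7.

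The T zone chemokines were also high in the 9 libraries, but they were measured in the other libraries too. Ccl21a was at 56.4 CPM in B6_1, 42.8 in WSB_1, 32.4 in WSB_9, 27.2 in WSB_8, 21.6 in Cast_7, 20.6 in PWK_1, 18.6 in B6_6, 18.0 in Cast_8 and 10.04 in WSB_7. The other 52 libraries ran from 0.828 to 15.8 CPM with a median of 6.14, and 10 of them, all of strain AJ or NZO, lay above WSB_7. Each of the 9 passed the highest remaining library of its own strain, and stood 1.97 times (WSB_7) to 16.2 times (PWK_1) as high as the median of those libraries. The 9 held 42.1% of the summed Ccl21a, less than for any lymphocyte gene, and 8 of the top 9 libraries for Ccl21a were among the 9.

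Ccl19 was at 6.58 CPM in B6_1, 4.16 in WSB_1, 3.74 in WSB_8, 3.12 in PWK_1, 3.08 in WSB_9, 1.52 in B6_6, 1.22 in Cast_7, 0.742 in WSB_7 and 0.449 in Cast_8. Elsewhere it ran from 0 to 0.918 CPM, so Cast_8 and WSB_7 lay inside the range of the rest and 13 other libraries passed Cast_8. Each of the 9 nevertheless passed the highest remaining library of its own strain, which was 0.460 CPM in B6, 0.196 in Cast, 0.148 in PWK and 0.295 in WSB. This did not hold for the sum of Ccl19 and its copy Gm2564 in Cast_8, which was 3.33 CPM with 2.88 in the copy, against up to 3.68 in the remaining Cast libraries. The sum in the other libraries of the 9 ran from 0.997 CPM in WSB_7 to 8.62 in B6_1, and each passed the remaining libraries of its strain, which reached 0.651 CPM in B6, 3.68 in Cast, 0.4199 in PWK and 0.513 in WSB. In Cast_7 the copy held 2.94 of 4.16 CPM.

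Cxcl13 (chr5:95956951-95961068) did not follow the lymphocyte genes across all libraries. Among the 9 it was at 13.9 CPM in WSB_1, 13.2 in WSB_9, 8.87 in WSB_8, 8.07 in Cast_7, 5.26 in PWK_1, 5.03 in B6_1, 4.38 in WSB_7, 3.91 in Cast_8 and 2.60 in B6_6. Its highest level of all, 21.1 CPM, was in NZO_8, whose Cd79a was at 0.270 CPM, and the next highest NZO library had 0.409 CPM of Cxcl13. Cast_6 (10.9 CPM), Cast_5 (9.82), PWK_6 (7.51) and Cast_1 (6.19) were also above most of the 9, with Cd79a at 0 to 0.198 CPM. Only 4 of the top 9 libraries for Cxcl13 were among the 9. Against the remaining libraries of the own strain, both B6 and all 4 WSB libraries of the 9 were higher, where those reached at most 0.307 CPM in B6 and 1.30 in WSB, whereas Cast_7, Cast_8 and PWK_1 lay within the range of their strains.

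The sum of the 10 macrophage and dendritic cell markers was 334 CPM in NZO_8 and 280 in PWK_6, against 65.1 to 334 in the 52 libraries. The sums of Cast_1, Cast_5 and Cast_6, which also had high Cxcl13, are not given here. In the strain fit described below, without the 9 libraries, 6 of these markers were called lower in Cast and 1 higher. Of all 16880 genes, 4951 were called lower there and 5827 higher. NZO_8 also had the highest sum of the bone marrow markers measured, 91.4 CPM, with S100a8 at 31.4 and S100a9 at 41.5, genes of neutrophils. The part of these cells in its Cxcl13 level was not tested.

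**Figure D2:**
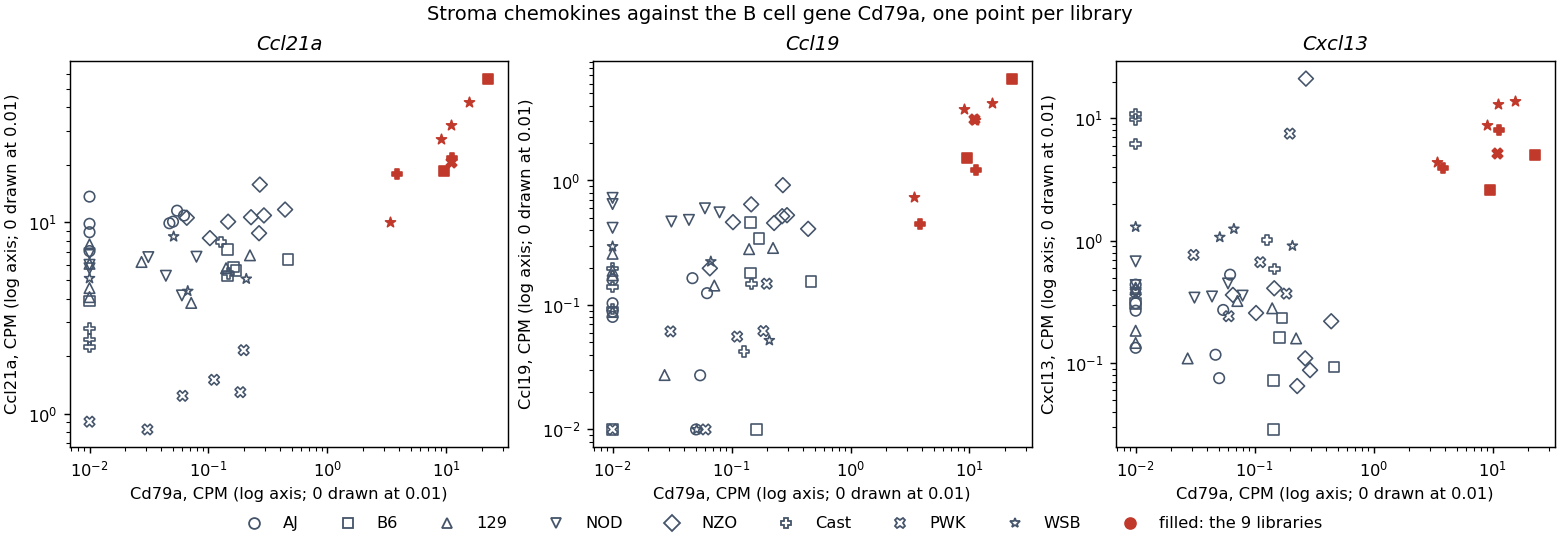
Each point is 1 library, with Cd79a CPM on the x axis and Ccl21a, Ccl19 or Cxcl13 CPM on the y axis, all on log axes with 0 drawn at 0.01. The marker shape gives the strain and filled points are the 9 libraries. Within the filled points Ccl21a and Ccl19, drawn without their copies, are higher where Cd79a is higher. Open points from NZO, Cast and PWK reach 6.19 to 21.1 CPM of Cxcl13 at Cd79a levels of at most 0.270.

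Whether the stroma genes go up with the lymphocyte genes was asked in 21 pairs, 7 lymphocyte genes by 3 chemokines, on log2 CPM. A pooled correlation over 61 libraries would only restate that 9 libraries stand apart, so the 2 sets were read separately. Within the 9 libraries, a choice made after the data were seen, Ccl21a was higher where each of the 5 receptor genes was higher. Pearson's r ran from 0.740 to 0.878. Ccl19 was higher with each as well (r from 0.869 to 0.928). These values leave out the copies, and the correlations within the 9 were not tested with the copies added. Gm2564 held 2.94 of the 4.16 CPM of Ccl19 and Gm2564 together in Cast_7, and 2.88 of 3.33 in Cast_8. Gm21541 held 19.2 of the 39.8 CPM of Ccl21a and Gm21541 together in PWK_1. All 10 pairs of a receptor gene with Ccl21a or Ccl19 passed an adjusted p of 0.05 by an exact permutation test over 21 pairs. The test shuffled the 9 libraries without regard to strain. The 5 receptor genes also chose these libraries and are read in the same 9. The 10 pairs are therefore not separate results, and their p-values are descriptive. For Cd79a with Ccl21a, r was 0.878 and Spearman's rho 0.867 (adjusted exact permutation p = 0.0129 and 0.0189, n = 9), and for Cd8a with Ccl19, r was 0.928 and rho 0.850 (adjusted exact permutation p = 0.00385 and 0.0213, n = 9). For Cd79a with Ccl19 the exact permutation p was 0.0108 adjusted for r and 0.0757 adjusted for rho, so the rank version missed the threshold. The 9 libraries come from 4 strains, and the strains could not be separated from the libraries at this number.

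These correlations also lean on the 2 libraries with the least lymphocyte signal. Without Cast_8 and WSB_7, r for the 5 receptor genes ranged from 0.611 to 0.863 with Ccl21a and from 0.651 to 0.866 with Ccl19, over 7 libraries. By r, Cxcl13 passed with Cd4 alone (r = 0.819, rho = 0.867, adjusted exact permutation p = 0.0210 for r, n = 9). Its r with the other receptor genes ran from 0.345 to 0.735. By rho it also passed with Cd3e (rho = 0.817, adjusted exact permutation p = 0.0323, n = 9). Cd4 and Cd3e were among the genes that chose these libraries, so these p-values are descriptive too. Igkc and Ighg2b passed with none of the 3 chemokines, with r from -0.246 to 0.568. Whether the correlations of receptor and antibody genes differ was not tested.

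Outside the 8 libraries of the original rule, 53 libraries gave 3 called pairs of 21 after the strain mean was subtracted. They were Cd79a with Ccl21a (r = 0.525, rho = 0.488, adjusted permutation p = 0.0122 and 0.0154), Igkc with Ccl21a (r = 0.472, rho = 0.490, adjusted permutation p = 0.0173 and 0.0153) and Ighg2b with Ccl19 (r = 0.511, rho = 0.389, adjusted permutation p = 0.0173 and 0.0790). These calls rest on WSB_7. Without it, over 52 libraries, none of the 21 pairs passed, 3 had an unadjusted permutation p under 0.05, and the same pairs had r of 0.472, 0.402 and 0.393 (adjusted permutation p = 0.0588, 0.0893 and 0.0893). Without the 2 libraries farthest from the median of each lymphocyte gene, again none passed. Cd79a had 0 to 17 counts in each of the 52 libraries.

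The receptors of the chemokines were measured in the same libraries. Ccr7, the receptor for CCL21 and CCL19, ran from 1.18 CPM in WSB_7 to 7.32 in WSB_1 among the 9 and reached at most 0.269 elsewhere. Cxcr5, the receptor for CXCL13, ran from 0.793 CPM in Cast_8 to 7.74 in B6_1 and reached at most 0.409 elsewhere. Neither receptor overlapped between the 9 libraries and the rest, so high Cxcl13 in NZO_8, Cast_1, Cast_5, Cast_6 and PWK_6 came without high Cxcr5. The lack of overlap was shared with other lymphocyte markers. It held for 13 of 17 tested B cell markers and 13 of 20 T and NK cell markers, these receptors included. Only 8 of the 17 and 8 of the 20 passed the filter on low counts without the 9 libraries. The share of all tested genes without overlap was not counted, so these counts are descriptive.

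The makeup of the lymphocyte signal varied between the 9 libraries. The 2 chains of the B cell receptor kept nearly 1 ratio, Cd79b to Cd79a from 0.470 to 0.648 in CPM. The ratio of Cd3e to Cd79a ran from 0.110 in B6_6 to 0.463 in WSB_9, and that of Cd8a to Cd4 from 0.230 in Cast_7 to 0.952 in B6_6. Antibody genes varied far more: Igkc to Cd79a went from 1.37 in PWK_1 to 23.5 in Cast_7, and Ighg2b to Igkc from 0.00871 in WSB_9 to 1.41 in Cast_8. The chemokine Ccl21a stayed within 1.89 to 4.70 of Cd79a, whereas Cxcl13 ran from 0.223 in B6_1 to 1.29 in WSB_7. Each ratio is 1 value per library, with no replicate of a library to give its error, and the ratios compare libraries and not genes with each other.

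**Figure D3:**
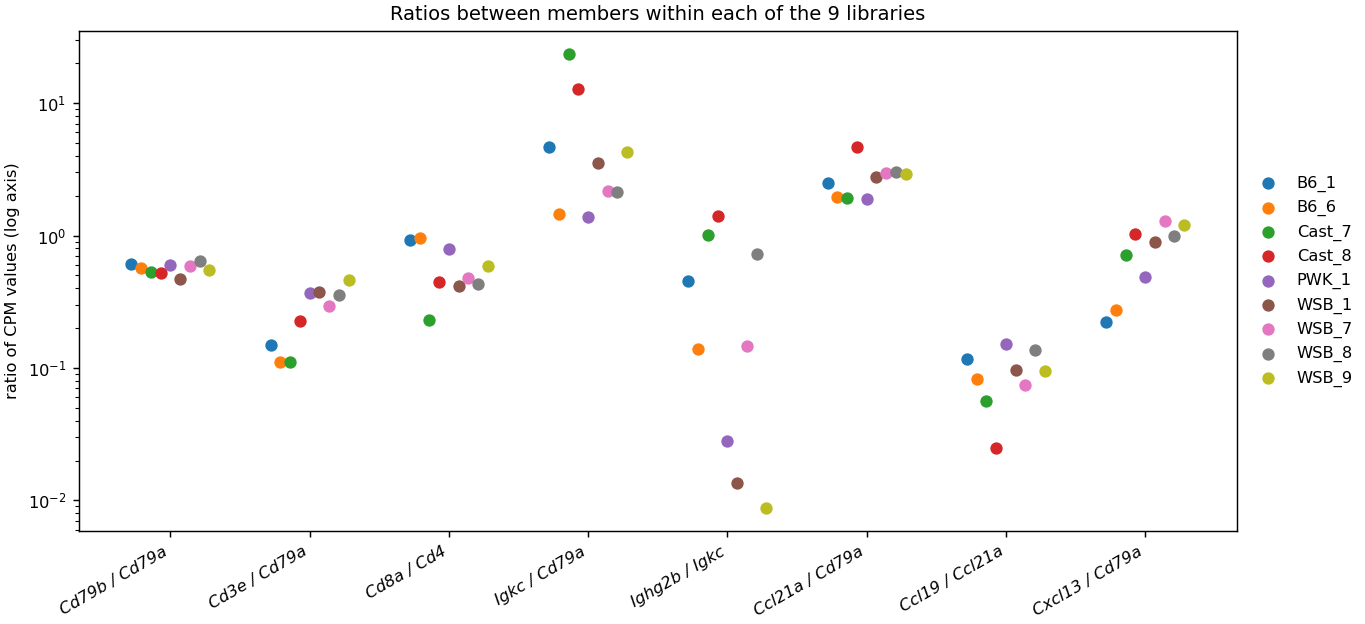
Each coloured point is 1 of the 9 libraries, and the y axis is the ratio of the CPM of 2 genes on a log axis. Cd79b to Cd79a stays between 0.470 and 0.648, while Ighg2b to Igkc spans 0.00871 to 1.41, highest in Cast_8 and Cast_7.

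In each fit below, a strain is set against the mean of the other 7 by edgeR's quasi-likelihood test over all genes, and a call is a Benjamini-Hochberg adjusted p under 0.05. With all 61 libraries, all 10 members differed among the strains, beside 85.5% of the 16682 genes tested. Cd79a, Cd8a and Ighg2b passed the filter on low counts only through the 9 high libraries, so a strain holding those libraries had to stand out for them, and their strain tests support nothing. Over the other 7 members, the median range between the highest and lowest strain was 4.99 log2 units, beside 0.906 for all genes. In bulk muscle, fewer cells of a type and less RNA per cell cannot be told apart.

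WSB was called higher than the other strains in 10 of 10 members, and so in each of these 7, beside 21.4% of all genes called higher there. Cd3e in WSB stood 3.19 log2 units above the mean of the others (SE 0.57, edgeR adjusted p = 7.45e-06) and Ccl21a 1.11 (SE 0.36, adjusted p = 0.0111). B6 was higher in 3 of the 7 (15% of all genes), Cast in 2 (33.8%) and PWK in 1 (20.6%), with Ccl21a lower in PWK (20.3% of all genes lower). AJ was lower in 3 of the 7 (14.9% of all genes) and 129 in 3 (11.4%). With the 3 genes that passed through the 9 libraries, the counts were 6 in B6, 4 in Cast, 3 higher in PWK and 4 lower in AJ. For NOD and NZO edgeR called none of the 10, beside 21.6% and 27.3% of all genes called in either direction. There 4 members in NOD and 3 in NZO had an unadjusted p under 0.05, as did 33.1% and 36.9% of all genes. DESeq2 called 4 members in NOD and 3 in NZO, beside 23.6% and 29.2% of all genes.

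These calls depended on the scale of the test. With limma on the deposited variance-stabilised values, 4 of 10 members differed among the strains, beside 83.6% of all genes, and none was called in AJ, B6 or 129 (31.8%, 25.7% and 25.6% of all genes). With limma on ranks, 1 member was called in WSB and 1 in B6 (42.6% and 26.1% of all genes).

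The strains called higher were the strains that hold the 9 libraries. In Cast, Ighg2b was at 267 CPM in Cast_7 and 68.8 in Cast_8, whereas the other 5 Cast libraries were at 0 to 0.0738. Without B6_1, 1 member was called in B6 in place of 6. Without PWK_1, 2 members were called in PWK in place of 4, and Cd79a and Cd8a in PWK turned to -1.72 and -1.77 log2 units, neither of them called. With any 1 of the 61 libraries left out, 9 to 10 members were called in WSB.

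Without the 9 libraries the strain pattern changed. Cd79a, Cd8a and Ighg2b no longer passed the filter on low counts, and 6 of the other 7 members differed among the strains, beside 84.6% of all genes. Igkc did not (edgeR adjusted p = 0.106). Of 20 strain differences called with all libraries and still tested, 4 were called with the same sign, 1 was called with the opposite sign and 12 differences were called that had not been before. That 1 was Cd4 in WSB, which went from 3.003 log2 units above the other strains (SE 0.59, adjusted p = 3.98e-05) to 1.68 below (-1.68, SE 0.64, edgeR adjusted p = 0.0455). With no filter on low counts as well, its difference was -1.685 and the call was lost (edgeR adjusted p = 0.05045). By strain, NZO was higher in 4 members (16.9% of all genes), AJ in 2 (19.6%) with 1 lower (16.3%), NOD higher in 2 (11.9%), and 129 (14.4%) and Cast (34.5%) higher in 1 each. PWK was higher in 1 (20.2%) and lower in 2 (19.4%), B6 lower in 2 (10.1%) and WSB lower in 1 (11.5%). The libraries were left out for their levels of Cd79a, Cd79b, Cd3e, Cd4 and Cd8a, so the values of these 5 genes without them are the values of the lower libraries by choice.

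**Figure D4:**
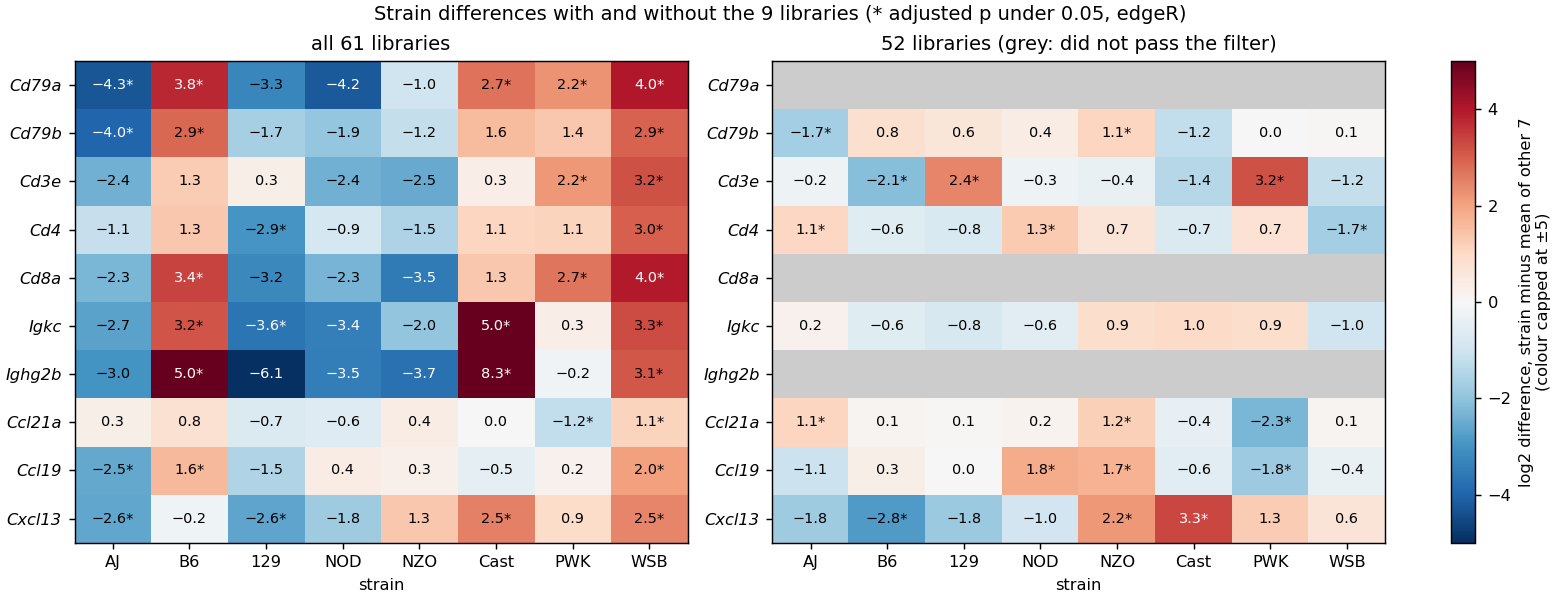
Each cell gives the log2 difference of 1 strain from the mean of the other 7 for 1 gene, red for higher and blue for lower, with a star for an edgeR adjusted p under 0.05. The left panel uses all 61 libraries and the right panel the 52 that remain without the 9, where grey rows did not pass the filter. The column of WSB is starred in all 10 rows on the left, where Cd79a, Cd8a and Ighg2b passed the filter only through the 9 libraries. On the right it is starred in 1 row, Cd4 with a negative difference, a call that was lost with no filter (adjusted p = 0.05045). Cd79b, Cd3e and Cd4 were among the genes that chose the libraries left out, so their stars on the right are descriptive.

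Outside the 9 libraries Cd3e was higher in PWK and 129 than in the other strains. It was at 0.513 ± 0.148 CPM in PWK (SD, n = 6) and 0.326 ± 0.134 in 129 (SD, n = 8), and at 0.0119 to 0.0637 on average in the other 6 strains. The fit without the 9 libraries put PWK 3.17 log2 units (SE 0.38, edgeR adjusted p = 1.47e-09) and 129 2.44 units (SE 0.37, adjusted p = 1.32e-06) above the others. Cd3e was among the genes that chose the libraries left out, so these p-values are descriptive. In PWK and 129 the CPM of Cd3g and Trac was lower than that of Cd3e, a difference that was not tested. CPM is not scaled for gene length, which differs between genes. Cd3g, the neighbouring chain of the same complex, averaged 0.104 ± 0.126 CPM in PWK and 0.0406 ± 0.0413 in 129, and Trac, the constant region of the alpha chain, 0.0570 ± 0.130 and 0.0427 ± 0.0323. These partner genes were picked after the values of Cd3e had been seen, and neither passed the filter on low counts without the 9 libraries. Trbc2 and Lck, also picked afterwards, averaged 0.101 ± 0.154 and 0.173 ± 0.207 CPM in PWK (SD, n = 6). PWK had the highest strain mean for Cd3g, Trbc2 and Lck, as for Cd3e, but not for Trac or Trbc1. The PWK means of Cd3g, Trac, Trbc2 and Lck lean on PWK_6, the highest of the 52 libraries for each. It held 0.321, 0.321, 0.371 and 0.593 CPM of them, and the SD in PWK was larger than the mean for each. Cd3e overlaps the annotated genes Gm48720 on its own strand and Gm48719 on the other, and the use of strand in counting is not given in the sources used here, so reads of these genes cannot be told apart from those of Cd3e.

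The other receptor genes reached at most 0.675 CPM in the 52 libraries, and Cd79b and Cd4 also had strain differences that were called there. Cd8a was at 0 counts in all 4 remaining WSB libraries, which allows up to 0.0669 to 0.0885 CPM in each. Cd79b was called higher in NZO (log2 difference 1.09, SE 0.38, edgeR adjusted p = 0.0254) and lower in AJ (-1.68, SE 0.53, adjusted p = 0.00972), at 0.213 ± 0.114 CPM in NZO and 0.0340 ± 0.0440 in AJ (SD, n = 8 each). Cd4 was called higher in NOD (1.30, SE 0.37, edgeR adjusted p = 0.00889) and AJ (1.05, SE 0.36, adjusted p = 0.0177), at 0.392 ± 0.0752 CPM (n = 7) and 0.338 ± 0.139 CPM (n = 8). Cd79b and Cd4 were among the genes that chose the libraries left out. NZO, AJ and NOD lost no library, whereas some of the strains they were set against lost those highest in these genes. The p-values are therefore descriptive and cannot decide whether the strains differ.

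Ccl21a was measured in each of the 52 libraries. Over the 52 libraries it was at 10.8 ± 2.28 CPM in NZO (SD, n = 8), 10.2 ± 1.91 in AJ (n = 8), 5.89 ± 0.951 in NOD (n = 7), 5.74 ± 1.82 in WSB (n = 4), 5.70 ± 1.13 in B6 (n = 6), 5.61 ± 1.36 in 129 (n = 8), 4.16 ± 2.46 in Cast (n = 5) and 1.32 ± 0.477 in PWK (n = 6). The Cast libraries ran from 2.24 to 7.91 CPM and those of PWK from 0.828 to 2.15. The means of NZO and AJ differed by less than the larger of their SDs, and so did those of NOD, WSB, B6, 129 and Cast among themselves. edgeR called NZO higher by 1.17 log2 units (SE 0.14, adjusted p = 1.72e-09), AJ higher by 1.07 (SE 0.14, adjusted p = 1.77e-08) and PWK lower by 2.30 (-2.30, SE 0.21, adjusted p = 5.76e-13).

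The copy Gm21541 had another order of strains. It was at 0 in every AJ library, at 0.00626 ± 0.0166 CPM in NOD and 0.172 ± 0.122 in NZO, but at 3.49 ± 0.605 in B6, 2.66 ± 0.771 in 129 and 2.85 ± 0.838 in PWK. In PWK the copy held 68.3% of the sum of both genes. With the counts of the copy added to Ccl21a, a choice made after seeing the data, the range between strains fell from 3.04 to 1.41 log2 units. The differences shrank to 0.64 in NZO (edgeR adjusted p = 0.000372), 0.52 in AJ (adjusted p = 0.00337) and -0.97 in PWK (adjusted p = 2.23e-05), all still called. In PWK_1 Ccl21a was at 20.6 CPM and Gm21541 at 19.2, while in B6_1 they were at 56.4 and 5.06.

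Over the 52 libraries the mean of Ccl19 was below that of its copy Gm2564 in every strain but AJ and 129. The member was at 0.556 ± 0.109 CPM in NOD (SD, n = 7) and 0.516 ± 0.206 in NZO (n = 8), both called higher (1.85 log2 units, SE 0.34, edgeR adjusted p = 4.41e-05, and 1.74, SE 0.32, adjusted p = 3.84e-05). The other 6 strains averaged 0.0545 CPM (PWK) to 0.190 CPM (B6), with PWK called lower (-1.83, SE 0.54, edgeR adjusted p = 0.00541). The copy Gm2564 was at 8.46 ± 1.04 CPM in NOD, 5.74 ± 0.702 in NZO and 2.47 ± 0.9004 in Cast, and at 0.0383 to 0.299 on average in the other 5 strains. With the copy added the range between strains rose from 3.21 to 6.03 log2 units, and Cast was called higher as well (1.80, edgeR adjusted p = 4.59e-10). NOD and NZO, which hold none of the 9 libraries, thus had the most counts of the Ccl19 pair.

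**Figure D5:**
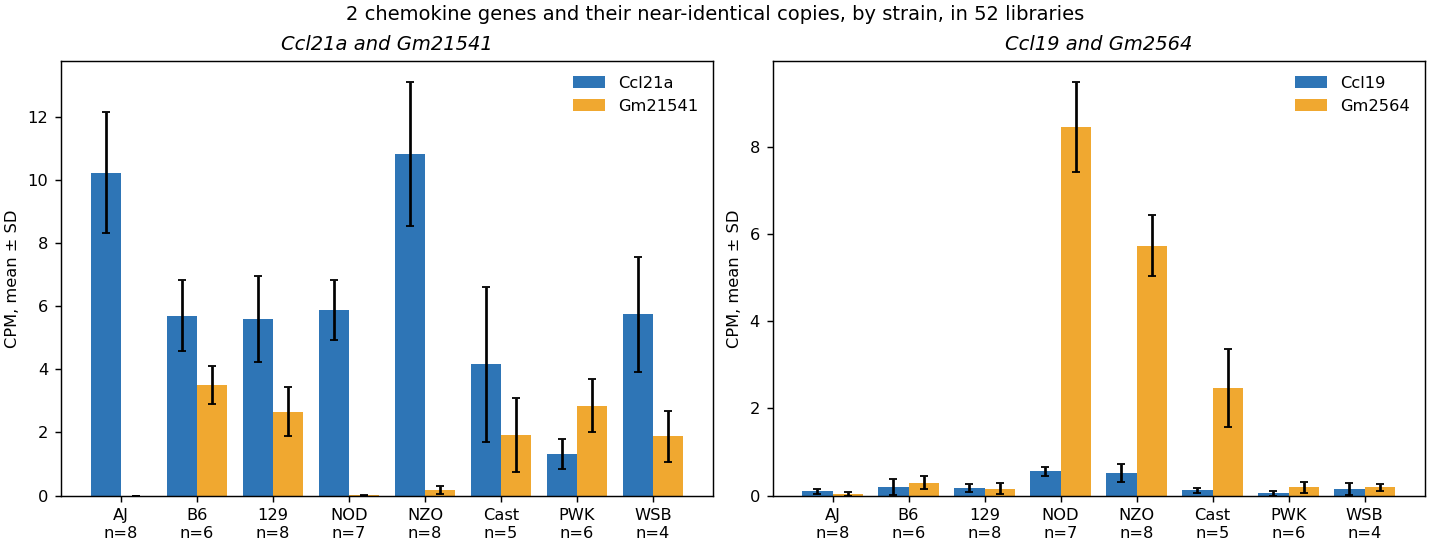
Bars are the mean CPM of a chemokine gene (blue) and of its near-identical copy (orange) in each strain over the 52 libraries, with SD as error bars and the number of libraries under each strain. Gm21541 is at 0 in AJ and passes Ccl21a in PWK, and Gm2564 reaches 8.46 CPM in NOD where Ccl19 is at 0.556.

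Cxcl13 differed among the strains without the 9 libraries as well, but through single libraries in part. Cast averaged 5.70 ± 4.79 CPM (SD, n = 5) and was called higher by 3.32 log2 units (SE 0.57, edgeR adjusted p = 1.88e-06). NZO was called higher by 2.16 units (SE 0.53, adjusted p = 0.00125) at 2.83 ± 7.40 CPM (n = 8), where 7 of the 8 libraries lay between 0.0651 and 0.409 CPM and NZO_8 at 21.1. WSB was even, 1.13 ± 0.178 CPM (n = 4), and B6 lowest, 0.150 ± 0.106 (n = 6), called lower by 2.82 units (-2.82, SE 0.99, edgeR adjusted p = 0.0316).

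Marker lists of cell types were counted in the same fits. Only markers that also passed the filter without the 9 libraries are counted here, 8 of 17 for B cells, 8 of 20 for T and NK cells and 8 of 10 for plasma cells, since the others passed through the 9. The median range between strains was 4.33 log2 units for these B cell markers and 4.24 for the T and NK cell markers with all libraries, and 2.66 and 1.93 without the 9. Called higher among all genes were 21.4% in WSB, 15% in B6, 33.8% in Cast and 20.6% in PWK with all libraries, and 13.6%, 13.6%, 34.5% and 20.2% without the 9. Of the 8 B cell markers, 7 were higher in WSB, 7 in B6, 2 in Cast and 4 in PWK with all libraries, and 0, 1, 1 and 5 without the 9. Ighm, the heavy chain of IgM, ran from 79.1 to 234 CPM in the 9 libraries and from 2.62 to 149 in the rest, so it overlapped, while Ighd, the heavy chain of IgD, ran from 4.06 to 29.8 and reached at most 0.567 elsewhere. Of the 8 T and NK cell markers, 7 were higher in WSB, 3 in B6, 1 in Cast and 4 in PWK, and 0, 1, 0 and 3 without the 9 libraries. Tcf7, a transcription factor of naive and memory T cells, ran from 3.43 to 14.8 CPM in the 9 and reached 1.21 elsewhere, whereas Cd28, a costimulatory receptor, reached 21.1 CPM in a library outside the 9. Of the 8 plasma cell and immunoglobulin markers, 3 were higher in WSB, 2 in B6, 6 in Cast and 1 in PWK, and 2, 1, 5 and 3 without the 9. Xbp1, a factor of secretory cells, overlapped (45.6 to 82.5 against 37.0 to 118.7 CPM), as did the surface proteoglycan gene Sdc1 (2.56 to 16.4 against 2.39 to 26.7 CPM).

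Stroma markers beyond the 3 chemokines moved less. Of 20 listed, 15 were in the table, 14 were tested and 13 were tested both with and without the 9 libraries. Of these 13, with all libraries, 6 were higher in WSB (21.4% of all genes), 5 in Cast (33.8%), 5 in PWK (20.6%), 5 in NZO (14.6%) and 0 in B6 (15%), while 9 were lower in AJ (14.9%) and 3 in 129 (11.4%). Without the 9 libraries, 1 was higher in WSB (13.6% of all genes), 4 in Cast (34.5%), 3 in PWK (20.2%) and 6 in NZO (16.9%), and 7 were lower in AJ (16.3%). AJ, 129 and NZO hold none of the 9. Their median range between strains was 1.04 log2 units with all libraries and 1.03 without the 9, beside 0.906 and 0.997 for all genes. The summed level was 145 to 185 CPM in the 9 and 95.2 to 167 in the rest, with medians of 160 and 119. Grem1, a secreted BMP inhibitor of fibroblastic stroma, was the gene of the list without overlap, 0.627 to 2.33 CPM against 0 to 0.597. The most abundant genes of the list overlapped, with higher medians in the 9. Enpp2, which makes lysophosphatidic acid, was at 35.1 to 45.2 against 13.6 to 59.8 CPM, with medians of 42.0 and 22.9. Mfge8, a bridging protein for dying cells, was at 45.0 to 77.1 against 30.7 to 51.7, with medians of 56.2 and 37.6. Of the 52 libraries, 3 for Enpp2 and 10 for Mfge8 lay above the lowest of the 9. Genes of lymphatic endothelium overlapped widely, with Lyve1 in 45 and Prox1 in 37 of the 52 libraries above the lowest of the 9.

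Lists of other cell types overlapped in range between the 9 libraries and the rest, and the medians of several differed. The erythrocyte markers, which would come with blood, summed to 95.9 to 296 CPM in the 9 and 64.7 to 605 elsewhere, led by Hbb-bs and Hba-a2, with medians of 149.8 and 238. The adipocyte markers had a median sum of 682 CPM in the 9 and 288 in the rest. Their sums ran from 412 to 991 CPM against 121 to 1115, with Fabp4 at 200.02 to 541 against 91.3 to 527 and Cfd at 44.4 to 206 against 10.3 to 317. Macrophage and dendritic cell markers had a median sum of 187 CPM against 120.01. Their sums ran from 151 to 246 CPM against 65.1 to 334, with Lyz2 at 50.9 to 126 against 9.05 to 141 and Mrc1 at 22.1 to 30.2 against 12.3 to 54.1. Markers of bone marrow (0.672 to 10.4 against 0 to 91.4 CPM), spleen (2.34 to 6.08 against 0.966 to 6.75, with Slc11a1 and Spic), thymus (Cd1d1 alone, 2.59 to 12.6 against 0.958 to 11.5), hepatocytes (132 to 1845 against 8.68 to 6447, with Alb and Cyp2e1) and keratinocytes (1.61 to 346 against 0.756 to 212, with Krt10 and Sbsn) overlapped too. So did the muscle markers (109690 to 152170 against 115600 to 208910 CPM). The sum of the germinal centre and dividing cell markers overlapped (83.7 to 152 against 31.5 to 154 CPM) and consisted mostly of Bcl6 (67.9 to 142 against 29.2 to 151 CPM), a repressor used by germinal centre B cells. S1pr2 overlapped as well, with 45 of the 52 above the lowest of the 9. The genes of dividing cells in that list, Mki67 and Top2a, had higher medians in the 9 (5.23 and 2.70 CPM) than in the rest (1.55 and 0.913). Mki67 was at 3.54 to 9.40 CPM and reached at most 3.15 elsewhere, and Top2a was at 1.88 to 5.34 CPM, with 2 of the 52 above the lowest of the 9. The part of these cell types in the lymphocyte signal was not tested.

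The genes whose values followed a member most closely were taken across the 61 libraries, with the strain mean subtracted. For Cd79a and Cd3e they were mostly lymphocyte genes. These values share the 9 high libraries and are descriptions. Among the closest to Cd79a were Pax5 (r = 0.927), Trbc1 (0.925), Iglc2 (0.922) and Ccr7 (0.920), and closest to Cd3e were H2-Ob (0.905), Iglc2 (0.902), Cr2 (0.894), Ccr7 (0.893) and Rac2 (0.889). Igkc was followed by Jchain (0.927), Rac2 (0.926), Ptprc (0.921), Plcg2 (0.907) and Il2rb (0.907). Ccl21a was followed by the leukocyte genes Arhgdib (0.912), Hmha1 (0.904), Ltb (0.9002), Rac2 (0.8999) and Ptprc (0.898). Cxcl13 was followed by Csf2rb2 (0.847), Csf2rb (0.831), Inpp5d (0.797), Ucp2 (0.794) and Dok3 (0.792). Csf2rb and Csf2rb2 are close paralogs, so their counts are uncertain in the same way.

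Over the 52 libraries alone, Ccl21a had other neighbours, and Cxcl13 in part the same. The closest to Ccl21a were then Clec3b (r = 0.799), Crip1 (0.791), Cd34 (0.790), Rcn3 (0.789) and Lum (0.760), of which Lum encodes a matrix proteoglycan and Cd34 a surface protein of endothelial and progenitor cells. For Cxcl13 they were Csf2rb2 (0.833), Pirb (0.755), Csf2rb (0.750), Rassf4 (0.704) and Osmr (0.704). For Cd79a, Cd3e and Igkc no gene passed r = 0.632 over these libraries, where their counts are sparse.

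Library traits that could move with the lymphocyte signal were set beside it. The 9 libraries held 30718510 to 45893017 counts, inside the range of all libraries, and 2.53% to 9.76% of their counts were Rn18s-rs5. Their trimmed-mean scaling factors were 1.035 to 1.172 with a median of 1.078, against 0.417 to 1.123 with a median of 0.9996 in the rest. Of the 9, PWK_1, WSB_1 and WSB_9 lay above all 52 in this factor, and 14 of the 52 lay above the lowest of the 9. The part of this factor in the signal was not tested. The running numbers in the titles of the 9 went from 9052 to 9109 in one series and from 10533 to 10648 in the other, against 9048 to 9110 and 10523 to 10648 over all libraries. Xist, the transcript of the inactive X chromosome, had more counts than the Y-linked Ddx3y in 4 of the 9 libraries and in 27 of the other 52. With the higher of these 2 transcripts as a covariate, all 10 members were again called among the strains.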

How the data were processed

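PolyA RNA of mouse skeletal muscle was sequenced in 61 libraries, grouped by the strain prefix of the title. The authors deposited estimated counts per gene, unscaled by library size, and also deposited variance-stabilised log2 values of the same genes. Of the count values 80.4% were whole, and the rest were rounded for the tests, which had been planned for whole counts. The submitters' processing notes name GRCm38 and DESeq2. Neither aligner nor counter is given in the sources used here. Every gene in the table had at least 1 count in 30 or more libraries, and 0 columns belonged to no sample.

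The main fit used edgeR 4.0.16 (R 4.3.3) with TMM scaling, filterByExpr by strain (16682 of 19462 genes kept), a quasi-likelihood F test over the 8 strains and contrasts of each strain with the mean of the other 7, with 53 residual degrees of freedom. P-values were adjusted by Benjamini-Hochberg over all genes tested. Correlations were taken on log2 CPM (prior count 2), with 100000 permutations within strain, of which the smallest possible p is 1e-05, or exact permutations within 9 libraries. Alternatives were size factors and tests of DESeq2 1.42.0, limma 3.58.1 on the deposited log2 values and on ranks, no filter, a replicate block, a prior count of 0.5, added copies, and libraries left out. Both procedures were tested on simulated data. Copies were found by BLAST 2.17.0 among GENCODE M21 transcripts.

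The members and lists were chosen with earlier results of these data known. Genes named are the 10 members, Ccr7 and Cxcr5, the 2 most abundant tested genes of each marker list, and for 5 members the 5 genes most correlated with each. 1 gene chosen by this rule is not reported here. A few genes outside this rule were named after their values were seen: Cd3g, Trac, Trbc2 and Lck, Grem1, Mki67, Top2a, Lyve1, Prox1, the copies, Jchain, Ighg2c, Xist, Ddx3y and Rn18s-rs5. Limits from a count of 0 cover counting error only.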

Additional observations from a re-analysis of the deposited data

Results flagged for a closer look

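In a strain of 7 or 8 libraries, a library was marked where its gap to the next library was unusually large for the range of the group (Dixon's test at 95%). Of 80 combinations of a gene and a strain, 34 were marked, all on the high side, and 23 of these fell in the 9 libraries high in lymphocyte genes. Chance marks about 1 in 20 groups where values are normally spread, and the 10 genes of a library are not independent. The CPM values were not put on a log scale and many lie near 0, so the share marked by chance here is not known. The mark of Ighg2b in 129_8, for instance, rests on 1 count.

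B6_1 stood apart in 9 of the 10 genes, every member but Cxcl13. Its values in CPM were 22.6 for Cd79a, 13.9 for Cd79b, 3.36 for Cd3e, 8.14 for Cd4, 7.49 for Cd8a, 104.6 for Igkc, 47.7 for Ighg2b, 56.4 for Ccl21a and 6.58 for Ccl19. PWK_1 stood apart in 8 genes, as the single PWK library of the 9. Its CPM was 10.9 for Cd79a, 6.53 for Cd79b, 4.05 for Cd3e, 7.59 for Cd4, 6.0035 for Cd8a, 15.0 for Igkc, 20.6 for Ccl21a and 3.12 for Ccl19. Cast_7 stood apart in 5 genes, with 11.2 for Cd79a, 5.995 for Cd79b, 264 for Igkc, 267 for Ighg2b and 1.22 for Ccl19 (CPM). WSB_8 stood apart in Ighg2b at 13.7 CPM, where the next WSB library had 1.07.

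The remaining 11 marks lay outside the 9 libraries. NZO_8 had 4 of them, Cxcl13 at 21.1 CPM, Ccl21a at 15.8, Igkc at 3.35 and Ighg2b at 0.189, while its Cd79a was at 0.270. PWK_9 had Ighg2b at 1.20 CPM, next to 0.423 in PWK_1. The others were below 1 CPM: Cd79b at 0.124 CPM in AJ_4, Cd3e at 0.234 in NZO_3, Cd8a at 0.140 in 129_7, Ighg2b at 0.221 in AJ_1 and 0.0319 in 129_8, and Cxcl13 at 0.679 in NOD_5.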

How the results depend on the processing

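With all 61 libraries, 10 members differed among the strains under DESeq2's size factors and test, no filter and the Xist or Ddx3y covariate, and 4 with limma on the deposited log2 values. That limma fit called 0 members in AJ, B6 and 129 and 2 in PWK, limma on ranks called 1 in B6, Cast and WSB, 2 in NOD and 3 in NZO, and DESeq2 called 5 in 129, 4 in NOD, 3 in NZO and 2 in PWK. The covariate gave 1 in NZO. Leaving out 1 library at a time gave 10 to 10 members among the strains, 4 to 5 in AJ, 1 to 8 in B6, 1 to 3 in 129 (1 without 129_3, 129_6 or 129_8), 0 to 1 in NOD and NZO, 3 to 6 in Cast, 2 to 5 in PWK and 9 to 10 in WSB. Of 41 calls on single genes, 14 were lost or reversed at least once when 1 library was left out. The reversed ones were Cd79a and Cd8a in PWK, at -1.72 and -1.77 without PWK_1, and up to 2.47 and 2.90 without another library.

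Without the 8 libraries of the original rule, 2 members were called in B6, 1 in 129, 1 in NOD, 3 in NZO, 2 in Cast and 4 in WSB, and Igkc in B6 turned to -1.01. Without the 9 libraries, 6 members were called among the strains, 2 in B6, 1 in 129, 2 in NOD, 4 in NZO, 1 in Cast and 1 in WSB. Then Igkc in B6 was at -0.59, and in WSB Cd3e at -1.19, Cd4 at -1.68, Igkc at -0.99 and Ccl19 at -0.39. With no filter as well, 1 was called in 129, 2 in NOD, 5 in NZO, 1 in Cast and 0 in WSB. The values were then -0.59 for Igkc in B6, -0.61 for Cd79a and -1.34 for Ighg2b in Cast, and in WSB -1.19 for Cd3e, -1.685 for Cd4, -3.17 for Cd8a, -0.99 for Igkc, -0.97 for Ighg2b and -0.39 for Ccl19. The limma fit on ranks gave -0.089 for Igkc in B6. With the copies added to Ccl21a and Ccl19, 1 member was called in NOD and 1 in NZO with all libraries. Without the 9 it was 6 among the strains, 3 in B6, 2 in NOD, 4 in NZO, 2 in Cast and 2 in WSB, with Igkc at -0.59 and Ccl19 at -0.86 in B6, and Cd3e at -1.19, Cd4 at -1.67, Igkc at -0.98 and Ccl19 at -1.56 in WSB. The cause of these changes was not tested, beyond the libraries and counts that each fit left out or added.

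Of the 21 gene pairs, 3 were called without the 8 libraries, 3 with DESeq2's size factors or a prior count of 0.5, 21 with all libraries pooled, 0 without the 9, 0 without the 2 farthest libraries, 2 with copies added and 0 with copies added and without the 9. The replicate block called 2 members in AJ, 5 in 129 and 2 in PWK, and 8 of the pairs. Libraries of different strains with the same number did not deviate together, so the numbers were not taken to pair them: over 186 such pairs the median correlation was 0.0108, 72 passed 0.1, the lowest was -0.563, and 11 of 61 libraries correlated best with their own number. Depth limits Cd79a, Cd8a and Ighg2b outside the 9 libraries, where their counts are near 0.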
